A study of Mus musculus with 18 samples.

Results

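The comparison described here set the DNA methylation peaks of mouse heart tissue taken 24 h after myocardial infarction (MI, loss of heart muscle downstream of a blocked coronary artery) against those of sham-operated hearts. It used 6 of the 18 libraries of the series, chosen by their group labels: 3 from infarcted and 3 from sham mice. All were male C57BL/6JR mice aged 12 weeks, and the study describes 3 mice for each group, so a library is taken as a mouse. In the infarcted mice the left anterior descending coronary artery was tied off. The sham mice (0 h) were opened in the same way and the suture was passed but not tied. Both groups had intubation and pentobarbital in the description of the surgery (50 mg/kg), and isoflurane before death. The labels of the 24 h mice give 58, 59 and 60 mg/kg of pentobarbital, and the sham label gives no dose. The sham group gives no time after its surgery other than 0 h, so time since operation and ligation cannot be told apart.

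DNA was sheared to about 250 bases and pulled down with an antibody against 5-methylcytosine before paired-end sequencing (MeDIP-seq). What was analysed is a list of peaks for each library, with a position and a score for each peak. A peak marks a place where methylated fragments piled up. It is not a percentage of methylated molecules, and a missing peak shows that the pile-up did not reach the authors' threshold, not that the DNA was unmethylated. Cardiomyocytes are the labelled cell type and myocardium the labelled tissue, and no isolation of cells is described. In whole tissue, a change in the mix of cells and a change within cells cannot be told apart. Peak lists give no expression, so the labelled cell type could not be checked against its markers.

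As background, DNA methylation in mammals sits mostly on cytosines of CG dinucleotides. It is written by the DNA methyltransferases DNMT1, DNMT3A and DNMT3B, and the TET enzymes oxidise it on the way to its removal. Most CG-rich promoters carry little of it, while gene bodies and the DNA between genes carry much. In the first days after coronary ligation the mouse heart holds dying muscle and many arriving neutrophils and monocytes, whose own methylation patterns differ from those of heart muscle cells.

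The peaks of the 6 lists were merged into regions wherever they overlapped by at least 1 base, which gave 110550 regions that covered 126 Mb, each 1011 bases wide at the median. A region was called gained when all 3 of the 24 h libraries and 0 of 3 sham libraries had a peak there, and lost in the opposite case. By this rule 601 regions (0.544% of all regions) were gained and 795 (0.719%) were lost. The lists differ in length, so the calls were repeated with equal numbers of peaks, the 44328 top-scoring peaks of each list, which is the length of the shortest. Then 681 regions (0.616%) were gained and 623 (0.564%) lost. The regions called the same way with both were 447 gained (0.404%) and 489 lost (0.442%). With 3 libraries against 3 no region can reach a p of 0.05, so single regions are given as counts of libraries and scores, with no test.

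Few of the calls lay at listed promoters: 1.20% of the gained and 1.44% of the lost regions touched a promoter window. The promoters below are printed as DNA and do not stand for the calls as a whole. They were chosen because every library of a group had a peak inside the 300-base window itself (250 bases before to 50 after the start) and no library of the other group did, and because their region was called as well. The sequences are RefSeq's for GRCm38.p6, read 5′ to 3′ on the strand of the gene, with CG dinucleotides in capitals. Of 21263 protein-coding windows, 3 (0.0141%) were gained in this way and 5 (0.0235%) were lost. The windows with a 24 h peak belonged to Mov10l1 (chr15:88982744-88983043, + strand), which encodes an RNA helicase of the piRNA pathway of germ cells, to the predicted gene Gm32280 (chr9:48669833-48670132, + strand), which lies within Zbtb16, and to Nudt16l2 (chr9:105145033-105145332, − strand).
Mov10l1: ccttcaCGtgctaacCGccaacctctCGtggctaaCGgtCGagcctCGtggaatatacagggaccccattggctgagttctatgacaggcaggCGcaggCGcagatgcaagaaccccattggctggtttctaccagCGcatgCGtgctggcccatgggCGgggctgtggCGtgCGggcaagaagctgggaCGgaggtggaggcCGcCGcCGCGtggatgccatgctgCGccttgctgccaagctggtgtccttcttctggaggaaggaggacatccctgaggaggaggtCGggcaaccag
Gm32280: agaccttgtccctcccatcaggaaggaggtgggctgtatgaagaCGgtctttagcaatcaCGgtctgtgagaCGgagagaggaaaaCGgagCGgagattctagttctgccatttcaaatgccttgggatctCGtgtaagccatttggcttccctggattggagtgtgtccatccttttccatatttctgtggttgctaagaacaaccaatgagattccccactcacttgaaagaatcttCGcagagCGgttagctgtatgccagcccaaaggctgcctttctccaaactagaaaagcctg
Nudt16l2: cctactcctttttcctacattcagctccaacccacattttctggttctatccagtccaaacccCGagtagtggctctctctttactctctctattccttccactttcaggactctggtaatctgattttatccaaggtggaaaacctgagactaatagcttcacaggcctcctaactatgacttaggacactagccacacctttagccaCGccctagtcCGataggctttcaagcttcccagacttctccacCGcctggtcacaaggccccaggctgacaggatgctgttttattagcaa

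The windows with a sham peak belonged to Tm4sf19 (chr16:32400256-32400555, + strand), which encodes a four-transmembrane protein, to Usp26 (chrX:51801184-51801483, − strand), which encodes a deubiquitinating enzyme of the testis, and to Pih1d1 (chr7:45155579-45155878, + strand), which encodes a subunit of the R2TP chaperone complex. Pih1d1 has 2 listed windows, and only the printed one was lost.
Tm4sf19: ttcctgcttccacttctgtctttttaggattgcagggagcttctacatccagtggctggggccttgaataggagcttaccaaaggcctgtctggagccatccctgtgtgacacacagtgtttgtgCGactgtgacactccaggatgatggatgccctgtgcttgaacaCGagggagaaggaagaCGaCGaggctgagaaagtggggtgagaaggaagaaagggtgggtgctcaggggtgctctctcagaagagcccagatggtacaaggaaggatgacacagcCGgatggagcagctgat
Usp26: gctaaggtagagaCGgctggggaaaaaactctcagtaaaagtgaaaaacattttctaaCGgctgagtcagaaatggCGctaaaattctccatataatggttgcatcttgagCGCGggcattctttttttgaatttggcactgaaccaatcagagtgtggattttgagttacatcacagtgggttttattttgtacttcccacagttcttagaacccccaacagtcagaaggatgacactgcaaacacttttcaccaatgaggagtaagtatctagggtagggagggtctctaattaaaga
Pih1d1: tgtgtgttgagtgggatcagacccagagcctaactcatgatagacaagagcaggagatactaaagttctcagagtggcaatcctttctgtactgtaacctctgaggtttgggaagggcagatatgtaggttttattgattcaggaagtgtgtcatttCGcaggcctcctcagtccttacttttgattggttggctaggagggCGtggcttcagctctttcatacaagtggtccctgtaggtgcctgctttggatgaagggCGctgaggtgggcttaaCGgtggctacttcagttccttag

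Of the windows printed, that of Mov10l1 held the most CG dinucleotides, 20, a number that 35.9% of all protein-coding windows reached. Gm32280 had 8, Tm4sf19 and Usp26 had 5 each, and Nudt16l2 and Pih1d1 had 4 each. The motif counted was CG, which reads the same on both strands, and 95.4% of all protein-coding windows held at least 1. The peaks covered all 300 bases of the Mov10l1 window in each 24 h library and all 300 bases of the Tm4sf19 window in each sham library. At Gm32280 the 24 h peaks covered 98, 300 and 43 bases of the window. The regions of Mov10l1, Nudt16l2 and Pih1d1 were not called with equal numbers of peaks. The other two lost windows, of the olfactory receptor gene Olfr691 (0 CG dinucleotides) and of Tex12, a synaptonemal complex gene (26), lay in regions that were not called, because another peak of the region was present in the other group. Olfr691 belongs to a family of similar copies, where the mapping of short reads can be uncertain.

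With all peaks, no measure of a whole library differed between the groups by more than the spread between libraries. The 24 h lists held 47244, 51063 and 47281 peaks (mean 48529 ± 2194, SD, n = 3) and the sham lists 49404, 60130 and 44328 (51287 ± 8068, SD, n = 3). The sham lists were both the longest and the shortest of the 6, so the 24 h values lay inside the sham range. The difference was -2758 peaks (two-sided exact permutation p = 0.8, where 20 assignments allow no p under 0.1), and it was 1663 without sham replicate 2. Peaks covered 50.8 ± 5.32 Mb at 24 h and 54.6 ± 7.07 Mb in sham (SD, n = 3 each, exact permutation p = 0.6). Their mean width was 1045 ± 69.3 bases at 24 h and 1070 ± 86.0 in sham (SD, n = 3 each, exact permutation p = 0.7). Peaks that touched an annotated gene made up 56.5% ± 0.210 at 24 h and 57.0% ± 0.927 in sham (SD, n = 3 each, exact permutation p = 0.8). Those at a promoter window made up 1.72% ± 0.0383 and 1.71% ± 0.10 (SD, n = 3 each, exact permutation p = 1). The adjusted p was 1 for each of the 6 measures tested. With equal numbers of peaks the share in genes was 56.15%, 56.26% and 56.09% at 24 h and 56.28%, 56.84% and 56.29% in sham. The difference was -0.303 percentage points (exact permutation p = 0.1, the smallest possible). The groups were only narrowly apart, with 56.26% in 24 h replicate 2 against 56.28% in sham replicate 1. No other setting of this measure reached that p, and those settings used lists of unequal length. The difference was -0.390 points by peak midpoint (exact permutation p = 0.9) and -0.968 points with a score of at least 70 (exact permutation p = 0.3). It was 0.124 points without sham replicate 2 (exact permutation p = 0.5).

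**Figure D1:**
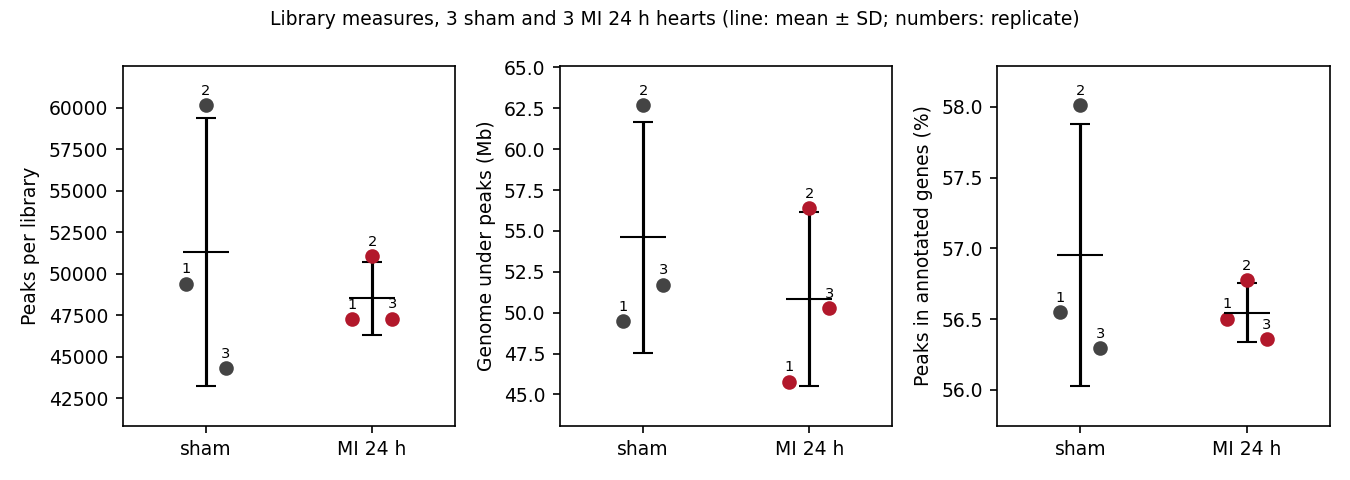
Peaks per library, genome under peaks in Mb and the percentage of peaks in annotated genes for the 3 sham and 3 MI 24 h libraries; points are libraries numbered by replicate, and the line and bars are mean ± SD (the axes do not start at 0). Sham replicate 2 is the highest point in each panel, with 60130 peaks, and the groups overlap in each.

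Overlap between libraries had the same mean within and between the groups. The Jaccard index, the bases under peaks of both libraries divided by those under peaks of either, averaged 0.366 within the 24 h group, 0.367 within sham and 0.367 between them. The within-group mean exceeded the between-group mean by 2.27e-05 (two-sided exact permutation p = 1). Of all regions, 13977 (12.6%) had a peak in all 6 libraries and 42708 had one in a single library. Among the 13926 regions with a peak in exactly 3 of 6 libraries, 4.32% were gained and 5.71% were lost, and the other 12530 mixed the groups. The regions just outside the rule were more numerous than those inside it: 1948 had all 3 of the 24 h libraries and 1 sham library, and 2275 had all 3 sham libraries and 1 of the 24 h libraries. The called regions were mostly weak, with a median score of 65.6 for gained and 66.3 for lost, on a scale that starts at 50. Among the other regions with a peak in 3 of 6 libraries the median was 66.0. It was 72.1 for all regions and 104 for the regions present in all 6 libraries. When only peaks scoring at least 70 were kept, 252 regions were gained and 470 lost, of which 54 and 70 were among the regions called with all peaks.

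**Figure D2:**
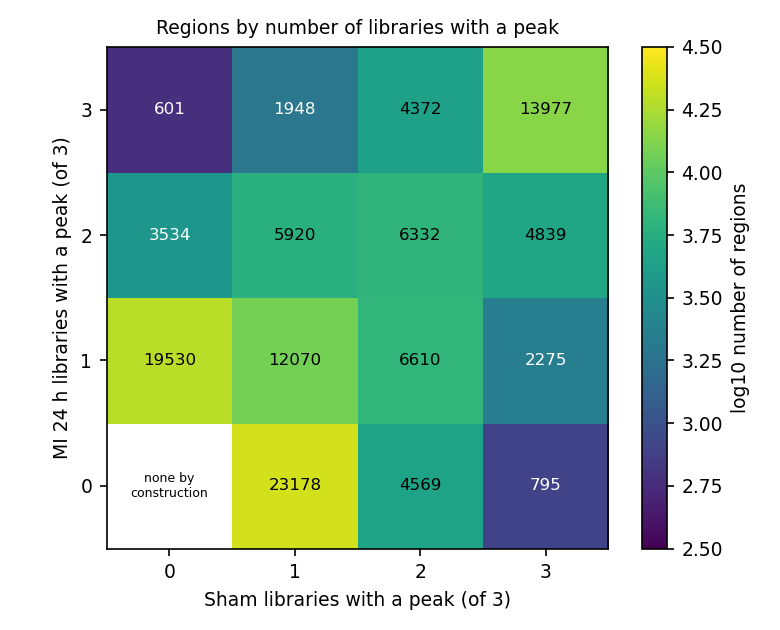
Number of regions for each combination of sham libraries (horizontal) and MI 24 h libraries (vertical) with a peak, coloured by the log10 of the number. The gained (601, top left) and lost (795, bottom right) cells are the smallest of those that can hold a region, beside 13977 regions with a peak in all 6 libraries.

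Of the 10 gained regions with the highest scores, 6 lay in protein-coding genes, 2 in other annotated genes and 2 outside genes. They were ranked by the mean score of the 3 libraries among regions called both ways, and the score is the authors' own value. First was a region in the uncharacterised gene Gm46606 (chr17:83097945-83099079) with scores of 122, 128 and 156 in the 24 h libraries. A region in Vps33a (chr5:123545271-123545830), which encodes a protein of vesicle fusion with lysosomes, scored 111, 185 and 83.7. A region in Ms4a1 (chr19:11259407-11260239), which encodes the B cell surface protein CD20, scored 109, 89.1 and 141. Ms4a1 overlaps the noncoding gene 4930526L06Rik there, and the lists carry no strand. The region in Aplp2, a relative of the amyloid precursor protein, had a mean score of 115 ± 32.9 (SD, n = 3), and that in Pdcd6ip, which encodes the ESCRT-associated protein ALIX, had 107 ± 32.2 (SD, n = 3). Further regions of the first 10 lay in the RNA helicase gene Ddx10, in Glmn, and in the noncoding Gm11539, whose nearest listed protein-coding start is that of Hoxb8. The remaining regions lay 37249 bases from Gmds, which encodes an enzyme of fucose synthesis, and 3078 bases from Pstpip1, a cytoskeletal adaptor of blood cells. Without the peaks under 70, 9 of these 10 kept a peak in all 3 of the 24 h libraries and the Pstpip1 region kept it in 2.

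Of the 10 lost regions with the highest scores, 5 lay in protein-coding genes and 5 outside genes. Mcu encodes the pore of the mitochondrial calcium uniporter, through which calcium enters mitochondria. Its region (chr10:59489872-59491680) scored 142, 111 and 114 in the sham libraries and had no peak in any 24 h library. Adprhl1 encodes an ADP-ribosylhydrolase-like protein of heart muscle. Its region (chr8:13238767-13239766) scored 86.2, 178 and 110 in sham and had no peak at 24 h. The first place was taken by Spocd1 (chr4:129956948-129958356), a gene of piRNA-directed DNA methylation in the germ line, with 104, 76.3 and 246, so that its rank rests on sham replicate 3. Regions in Gabpb1, which encodes a subunit of a transcription factor of nuclear-encoded mitochondrial genes, and in Calcr, the calcitonin receptor gene, had means of 115 ± 14.7 and 115 ± 47.1 (SD, n = 3 each). The other 5 lay outside genes, nearest to Gm29959, Amtn, Gm31729, Gm41243 and Gm25919.

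**Figure D3:**
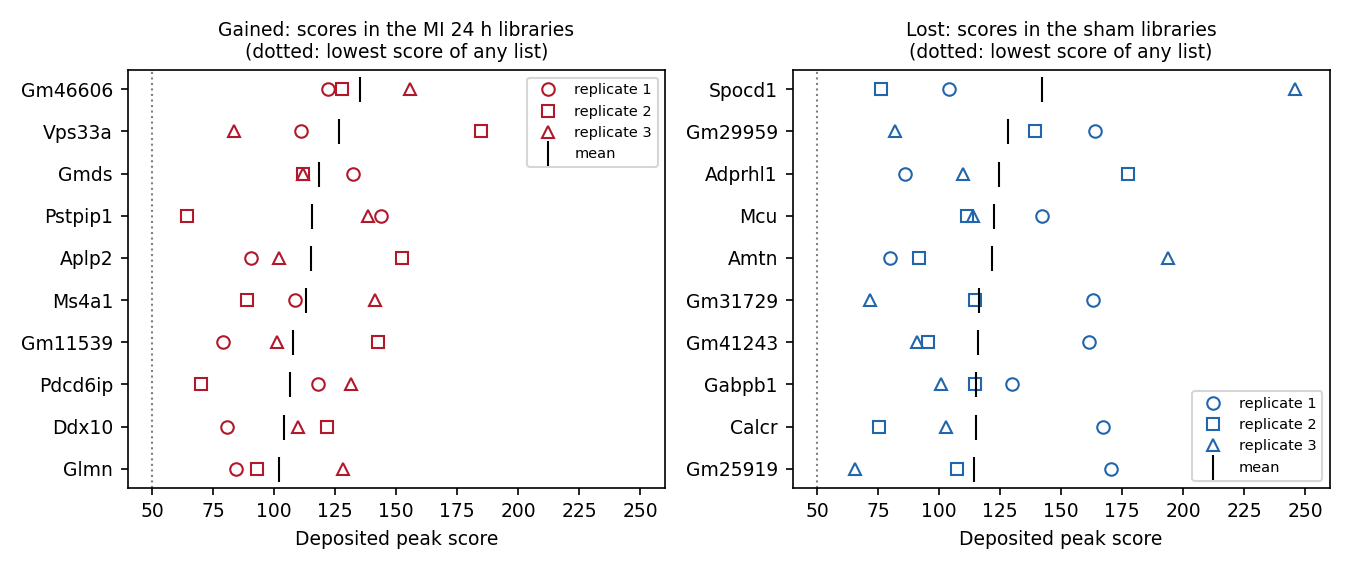
Deposited peak scores of the 10 gained (left, MI 24 h libraries) and 10 lost (right, sham libraries) regions with the highest mean score, labelled by the gene they lie in or nearest to; open symbols are replicates, the black tick is the mean and the dotted line is 50, the lowest score of any list. Single libraries set some means, as sham replicate 3 with 246 in Spocd1.

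The called regions, like all regions, lay mostly away from listed promoters. A promoter window was touched by 1.20% of the gained and 1.44% of the lost regions, beside 1.79% of all regions. Not every gene has a listed window, so these shares may be too low. Of the gained regions, 48.4% (exact 95% binomial interval 44.4 to 52.5, counting error only) lay in a protein-coding gene, beside 48.8% of all regions. Of the lost regions, 53.1% (49.5 to 56.6) did. Regions outside any annotated gene made up 40.6% of the gained (36.6 to 44.6) and 36.5% of the lost (33.1 to 39.9), beside 41.1% of all regions. The larger share of lost regions in protein-coding genes was also there with equal numbers of peaks, 54.4% against 46.3% for gained. Regions have no replicates of their own and the weak regions with mixed libraries were at 50.2%, so nothing is read from these shares about the groups. By chromosome, the lost share of regions ran from 0.462% on chromosome 14 to 0.992% on chromosome 9, around 0.719% over all, and the gained share from 0.302% on X to 0.700% on chromosome 1, around 0.544%.

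**Figure D4:**
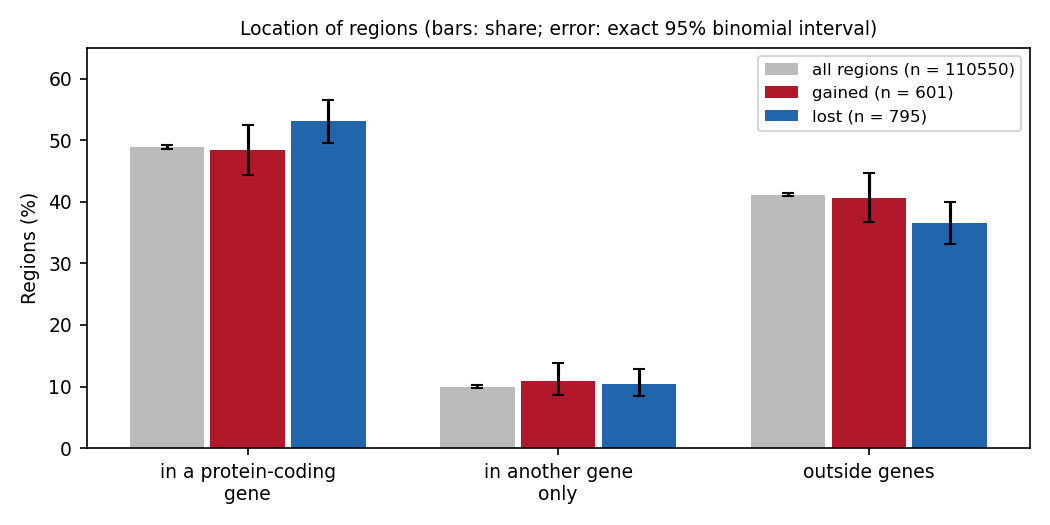
Percentage of all 110550 regions (grey), of 601 gained (red) and of 795 lost (blue) regions in a protein-coding gene, in another gene only, or outside genes; error bars are exact 95% binomial intervals. The gained bars lie beside those of all regions, and the lost bar for protein-coding genes is at 53.1%.

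At promoter windows of protein-coding genes lay 4 gained regions (0.686%) and 5 lost (0.653%), beside 0.818% of all regions, so neither share stood above the background. Beside the windows printed above, the gained region at 3425401B19Rik (chr14:32683557-32685389), which encodes the muscle Z-disc protein CEFIP, scored 70.8, 57.0 and 72.0 at 24 h. Peaks of a single 24 h library reached its window, so the region but not the window was gained. The lost region at Zfp652 (chr11:95749033-95750670), a zinc finger repressor gene, scored 78.3, 106 and 63.0 in sham, and that at Bnip5 (chr17:28913891-28915308) scored 55.9, 69.4 and 63.7. A single sham library reached each of these windows, with 84 bases at Zfp652 and 34 at Bnip5, so neither window was lost. With the peaks under 70 left out, the Bnip5 region kept a peak in 0 of 3 sham libraries. Usp26 had the most even scores of the lost regions at promoters, 92.2, 86.3 and 82.0, and kept a peak in all 3 sham libraries with the peaks under 70 left out. The regions of Mov10l1 (74.5, 50.8 and 50.3) and Nudt16l2 (51.3, 65.8 and 54.7) were at the lower end of the scale, the former also overlaps Mlc1, and neither was called with equal numbers of peaks. The lost region of Pih1d1 (73.6, 60.0 and 76.8 in sham) was not called with equal numbers either, since a peak was then left in 2 of 3 sham libraries. Promoter windows under a peak in all 6 libraries numbered 90, with a median of 8 CG dinucleotides, beside a median of 14 in the 20342 windows with no peak.

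The 240 genes of 12 lists chosen for the infarcted heart held few of the calls. A gained region lay in or within 2000 bases of 6 of them (2.5%), against 1.42% of all 21900 protein-coding genes, and a lost region at 4 (1.67%), against 2.05%. Genes with calls were long: the median length was 83.1 kb with a gained and 77.5 kb with a lost region, 24.5 kb for the genes of the lists and 17.1 kb for all protein-coding genes. The contractile, inflammation, leukocyte, endothelial and fatty acid lists had 0 of 20 genes with a gained and 0 of 20 with a lost region each. With equal numbers of peaks 6 genes of the lists had a gained and 5 a lost region, and they were in part other genes. Ttn, the titin gene of the contractile list, and Ryr2, the gene of the calcium release channel, then had a gained region, and Cacna1c and Itpr2, a pair of calcium channel genes, and Fli1, of the endothelial list, a lost one. The inflammation, leukocyte and fatty acid lists had none with either rule. Leukocyte marker genes with any peak numbered 5, 5 and 5 of 20 in the 24 h libraries and 5, 7 and 4 in sham. Contractile genes with any peak numbered 13, 10 and 9 of 20 at 24 h and 10, 12 and 7 in sham. Both lists therefore overlapped between the groups, although a peak at a marker gene says nothing of how many cells of that type were present.

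In the list of the methylation machinery, Dnmt3b and Tet2 had a gained and Dnmt3a a lost region, each inside the gene. The Dnmt3a region (chr12:3902302-3903061), 10558 bases from a listed start of the gene, scored 76.2, 91.0 and 55.9 in the 3 sham libraries and was called both ways. The gained region in Dnmt3b (chr2:153678421-153679393) scored 72.8, 52.0 and 61.5, and that in Tet2 (chr3:133485878-133486545) scored 70.1, 52.1 and 66.5. Neither of these was called with equal numbers of peaks, and each then kept a peak in 2 of 3 of the 24 h libraries and in 0 of 3 sham libraries.

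Of the metabolic and calcium genes, Slc2a4 and Slc8a1 had a gained region. Slc2a4 encodes GLUT4, the insulin-responsive glucose transporter of muscle and fat, and its region (chr11:69944349-69946772) scored 74.4, 82.7 and 65.7. Slc8a1 encodes the sodium-calcium exchanger of the heart muscle membrane, and its region (chr17:81470599-81471515) scored 60.8, 74.1 and 52.0. Both were called both ways. Gnas, an imprinted gene that encodes the stimulatory G protein subunit, had a gained region (chr2:174316421-174317809) with scores of 103, 93.3 and 55.4.

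Among structural and regulatory genes, Col8a1, which encodes a short-chain collagen, had a lost region (chr16:57738948-57740261) with sham scores of 66.7, 95.5 and 83.5. Foxp1, a forkhead transcription factor gene of heart development, had 2 lost regions (chr6:98922436-98923545 and chr6:99190685-99191834) and 1 gained (chr6:99469063-99470484). The first of these lay outside the gene, 1797 bases from it. Foxp1 is 597 kb long and touched 43 regions, and of the 3 calls only the gained one held with equal numbers of peaks. In all, 18 genes had both a gained and a lost region.

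Calls seldom gathered in single genes. At least 2 gained regions lay at 7 protein-coding genes and at least 2 lost regions at 16. In Tm4sf19, a gene of 9.22 kb, both of its regions were lost: that over the promoter scored 60.0, 111 and 50.8 in sham, and that at chr16:32405206-32406265 scored 89.2, 58.3 and 67.4 and was not called with equal numbers of peaks. Galns, which encodes a lysosomal sulphatase, had 2 lost of its 4 regions, both called both ways, with means of 72.7 ± 16.7 and 86.0 ± 19.7 (SD, n = 3 each). Tle1, which encodes a Groucho-type corepressor, had 2 gained of 6 regions, with means of 80.5 ± 11.5 and 74.3 ± 14.4 (SD, n = 3 each). Also with 2 gained regions were Scyl2, Cdc14b, Prkch and Grin2a, and with 2 lost 9430038I01Rik, Albfm1 and Baiap2l1. Scyl2 had 1 lost region as well, of 4 regions in all. The Albfm1 region at chr5:90559615-90560324 lay outside the gene, 885 bases from its listed start, and Gm2602 was nearer, at 194 bases. With equal numbers of peaks 1 of the 2 was still called in Scyl2, Prkch and Grin2a and 0 of 2 in Baiap2l1. No gene had more than 2 calls of a direction, and these are the shortest of the genes with 2.

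Of 1005 microRNA hairpins, 114 lay under a peak of at least 1 of the 6 libraries and 14 under peaks of all 6. A single hairpin lay in a called region, that of Mir680-1 on chromosome 6, in a gained region (chr6:129691117-129691886) with a mean score of 64.6 that was not called with equal numbers of peaks. Its mature form (chr6:129691541-129691561, + strand, RefSeq, GRCm38.p6) is shown with the seed in capitals; it is the only microRNA among the calls, and its copies elsewhere in the genome were not compared.
mmu-miR-680: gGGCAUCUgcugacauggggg

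The 12 libraries at 10 min, 1 h, 6 h and 72 h after ligation did not enter the calls and show how often the same places had a peak at other times. Before 24 h the lost regions were more often under a peak than the gained in each of 9 libraries, 41.7% ± 6.47 against 32.5% ± 6.13 (SD, n = 9). At 72 h the order was turned in each of 3 libraries, with 49.3% ± 5.96 of gained and 46.6% ± 7.36 of lost regions under a peak (SD, n = 3). The gained share minus the lost share was -8.68, -10.05 and -7.73 percentage points at 10 min. At 1 h it was -13.3, -12.7 and -13.6, at 6 h -6.14, -4.47 and -5.56, and at 72 h 4.29, 0.24 and 3.48. Regions with a peak in 3 of the 6 libraries of mixed groups were under a peak in 37.4% before 24 h and 48.7% at 72 h, a share that lay between those of gained and lost regions at both. Regions called both ways gave differences from -17.3 to -4.25 points before 24 h and from -3.29 to 3.55 at 72 h. The lists at 72 h were also long, with 58992, 60653 and 48608 peaks against 34255 to 52259 at the earlier times. With the 34255 top-scoring peaks of each of the 12 libraries, the difference ran from -10.8 to 0.658 at the earlier times and from -0.0563 to 4.72 at 72 h, so 6 h replicate 2 then lay above 72 h replicate 2. This contrast of 72 h with the earlier times was drawn after the values were seen and is given with no test.

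**Figure D5:**
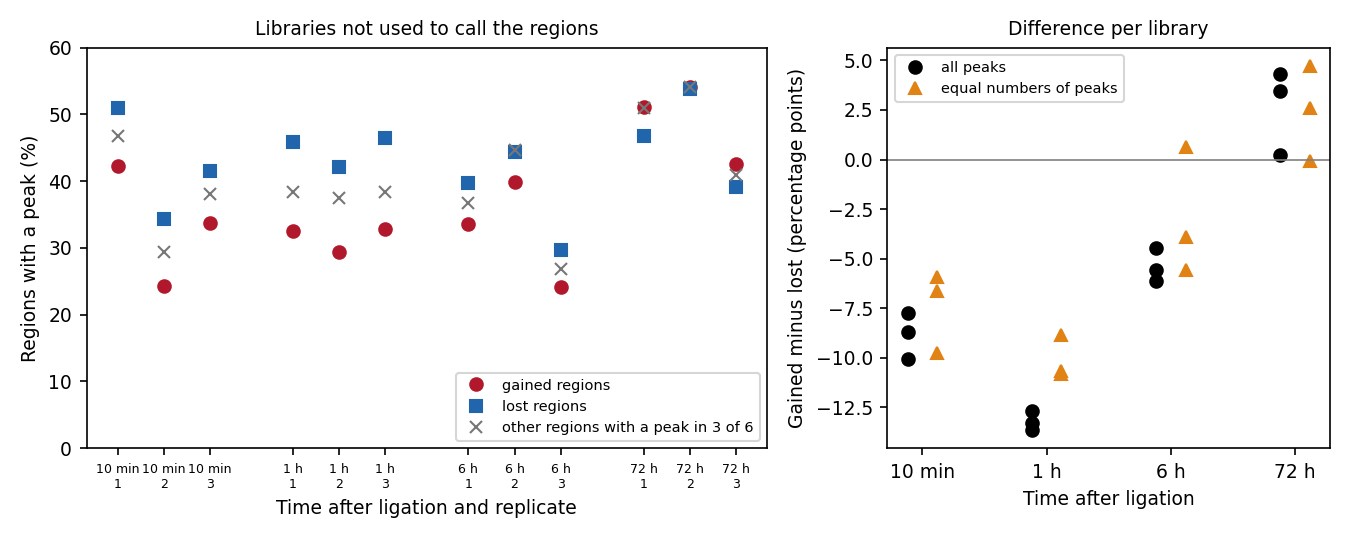
Left, the percentage of gained (circles), lost (squares) and other 3-of-6 regions (crosses) with a peak in each of the 12 libraries not used to call them; right, gained minus lost in percentage points for each library, with all peaks (circles) and with equal numbers of peaks (triangles). With all peaks the 9 earlier libraries lie between -13.6 and -4.47 points and the 72 h libraries between 0.24 and 4.29.

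The named regions differed widely in this respect. The lost Adprhl1 region had a peak in all 12 other libraries. The lost Mcu region had a peak in 7 of them and the lost Dnmt3a region in 4, with 0 of 3 at 72 h. The gained Slc2a4 region had a peak in 8 of the 12, among them all 3 at 72 h, and the gained Gm46606 region in 9. Those in Slc8a1, Dnmt3b and Foxp1 had a peak in 1 other library each, taken at 72 h in all 3 cases, and that in Tet2 had 2 others, both at 72 h. Others went the opposite way: the gained regions near Gmds and in Ddx10 had a peak in 5 and 3 other libraries, 0 of them at 72 h, and the lost Calcr region had a peak in 9, among them all 3 at 72 h. Of the 30 named gained regions, 5 lacked a peak at 72 h in every library and 8 had one in all 3. Of the 29 named lost regions, 4 lacked one in every 72 h library and 3 had one in all 3. The named regions were picked by score, promoter, list or number of calls, so these counts do not describe all called regions.

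Regions absent at 24 h alone were rare. Of 8224 regions with a peak in all 15 libraries outside the 24 h group, 7700 (93.6%) had a peak in all 3 of the 24 h libraries as well, 462 in 2, 54 in 1 and 8 (0.0973%) in none. The 8 were singled out after their values were seen. Each lay in a protein-coding gene, as did 53.1% of all lost regions, and each was called both ways, as were 61.5% of all lost regions. Mean sham scores of the 8 ran from 71.5 to 125. Beside Adprhl1 they lay in Pard3b, a cell polarity gene (chr1:62533618-62534959, sham scores 66.5, 123 and 97.2), in Cit, the citron kinase gene (chr5:115931821-115934005, 68.1, 92.9 and 84.0), and in Deptor, which encodes an inhibitor of mTOR (chr15:55165285-55167299, 67.2, 103 and 65.01). The rest lay in Rmnd5a, a ubiquitin ligase subunit gene, in Trio, in Ctnnd2, which encodes a delta catenin, and in Mvb12b, an ESCRT gene. Sham replicate 2 had the highest score of the 3 sham libraries in 7 of the 8.

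Regions present at 24 h alone were also few. Of 7571 regions with no peak in any of the 15 other libraries, 7116 (94.0%) had one in a single 24 h library, 430 in 2 and 25 (0.330%) in all 3. The genes named here were singled out after their values were seen. Mean scores of the 25 ran from 53.0 to 78.9, and 13 were called both ways. The highest were in Macf1, which encodes a protein that links actin to microtubules (chr4:123434308-123435275, 54.1, 102 and 81.2), and in Kif2a, which encodes a microtubule-depolymerising kinesin (chr13:107015996-107016709, 57.6, 84.0 and 92.8). The region in Il17ra, the interleukin-17 receptor gene (chr6:120474998-120476384), scored 62.1, 53.1 and 56.6. That in Slmap, a gene of sarcolemmal membranes (chr14:26449778-26450760), scored 53.2, 53.4 and 52.3, the lowest mean of the 25.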

How the data were processed

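MeDIP-seq peak lists of 6 libraries (3 MI 24 h, 3 sham, grouped by their labels) were compared; the 12 libraries of other times served only to look up the called regions. Peaks were called for each library separately by the authors. The submitters' processing notes name Bowtie2, MACS2 and the build mm10, and versions, thresholds and the use of input are not given in the sources used here. The deposited score of each peak is the authors' own, on a scale that is not stated, and its lowest value was 50 in each of the 6 lists. Read counts were not used, so the depth is unknown and no floor is given. List length and score threshold bear on every call, which is why equal numbers of top-scoring peaks were also used.

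Peaks were merged at an overlap of at least 1 base with Python 3.11.15, numpy 2.4.6 and pandas 2.3.3, which also served for the exact permutation tests. Exact binomial intervals used scipy 1.17.1. Intervals cover counting error only. P-values of the 6 library measures were Benjamini-Hochberg adjusted over these 6. The scripts were tested on simulated peaks. Gene positions, 32851 promoter windows and microRNAs came from RefSeq tables of GRCm38.p6, the same assembly as mm10, and all 240 list symbols were found. The promoter table lists no window on chromosome 18, so promoter shares were taken over the other chromosomes, and distances are to listed starts. Other chromosomes have gaps as well: windows were listed for 17492 of the 21900 protein-coding genes. The gained region in Rp1 on chromosome 1 had its nearest listed protein-coding start 1.396e+07 bases away. A region at a promoter with no listed window was not counted as such. Exons and introns, and sequence outside these tables, were not analysed here.

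Named were the 10 regions per direction with the highest mean score among those called both ways, the regions at promoter windows of protein-coding genes, each list gene with a call in the gene or 2000 bases around it, and the 5 protein-coding genes per direction with the most calls (at least 2; all had 2, and ties went to the shorter gene). The values of 1 list gene are not reported here. Regions named outside this rule are said to have been singled out or are all of their kind. The regions, lists and comparisons were chosen with earlier results of these data known. Alternatives were a score of at least 70, equal numbers of peaks, 50% of a region under peaks, merging across gaps of 200 bases, bins of 1000 bases, genes by peak midpoint, each library left out, and the replicate number as a block. The comparison of 72 h with earlier times, and its alternatives, were added after seeing the data. The labels do not say more about the mice, so p-values measure the spread between these libraries.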

Additional observations from a re-analysis of the deposited data

How the results depend on the processing

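With 3 libraries a group no alternative could pass a threshold of 0.05, so only the size and direction of the library measures are given; several changed direction. With each library left out in turn, the difference (24 h minus sham) ran from -6238 to 1663 peaks, from -6.59 to 0.216 Mb, from -59.0 to 23.5 bases of mean width, from -0.735 to 0.124 percentage points in genes, from -0.0491 to 0.0488 points at promoters, and for the Jaccard index from -0.0034 to 0.00393. The differences in peaks, in Mb and in the share in genes turned positive without sham replicate 2, the longest list. With a score of at least 70 the promoter difference was -0.0377 points and the Jaccard difference -0.000669, both reversed. The cause was not tested.

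Without any 1 of the 6 libraries the rule asks for 1 library fewer, and the counts rose to between 1003 and 1911 gained and between 1479 and 2741 lost with all peaks. With equal numbers these ran from 1190 to 2044 and from 1207 to 1996. A score of at least 70 gave 252 gained and 470 lost with all peaks and 300 and 331 with equal numbers, and bins of 1000 bases gave 1196, 1698, 1313 and 1354 in the same order. With 50% of a region under peaks, gaps of 200 bases merged, or regions merged anew, the counts stayed within 1.5 times.

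Libraries with the same replicate number deviated together only very weakly (correlations 0.00777, 0.0113 and 0.0197). The other pairs ran from -0.0192 to 0.00818. MI 24 h replicate 1 correlated slightly better with sham replicate 2 (0.00818) than with its own number, and every other library correlated best with its own. All these correlations were very small, so the numbers were not read as pairs. With the replicate number as a block the differences are the same by construction (-2758 peaks, -3.81 Mb, -24.7 bases, -0.406 and 0.00587 percentage points, and 2.27e-05 in Jaccard index), and the smallest exact permutation p possible is 0.25; the values were 0.75, 0.25, 0.75, 0.75, 1 and 1. Depth is unknown, so peaks near the score limit may be missed in any library.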
